A study of Daucus carota with 6 samples.

Results

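The genes of starch synthesis and breakdown were examined in RNA-seq of fleshy roots of carrot (Daucus carota). Members were the rows of the deposited expression table whose protein description names a starch enzyme, an amylase, an isoamylase, a pullulanase, a glucan-branching enzyme, glucose-1-phosphate adenylyltransferase or alpha-glucan water dikinase. The words for alpha-glucan phosphorylase and disproportionating enzyme were also searched and brought in no gene of their own. An amylase inhibitor was left out, which gave 35 members among 35073 genes. Of these, 34 reached 1 FPKM in at least 3 of the 6 samples and were tested. The exception was an alpha-amylase-like gene (DCAR_023865.v1.0), listed at 0 to 0.18 FPKM. Levels are in FPKM, which expresses sequenced fragments per unit of transcript length and of library size, and summaries are mean ± SD over 3 samples.

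Roots came from betanin-transgenic carrots (BC, 3 samples) and from non-transgenic carrots (WT, 3 samples). The BC plants carry CYP76AD1S, cDOPA5GTS and DODA1S, which together make the red pigment betanin, and are described as stable transformants that accumulate it in all their organs. The labels name no cultivar, age, growth condition, promoter or number of transgenic lines, and leave unsaid whether each sample is a plant of its own. The p-values therefore measure only the spread between these samples, which may be technical. In bulk tissue, fewer cells of a type and less RNA per cell cannot be told apart.

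Starch is built in plastids from ADP-glucose, which ADP-glucose pyrophosphorylase makes from glucose-1-phosphate and ATP. Starch synthases add the glucose to growing chains, branching enzymes introduce branch points and isoamylases trim misplaced branches so that amylopectin can crystallise. Breakdown begins with phosphorylation of the granule surface by dikinases, followed by amylases and debranching enzymes that release maltose and other glucans. Phosphorylases also take part in breakdown. The carrot storage root holds mostly soluble sugars and comparatively little starch. Most of these roles were established in Arabidopsis leaves, potato tubers and cereal grains.

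Among the starch genes the clearest difference between BC and WT roots was at the branching step, where the summed level of the 4 branching enzyme genes was 199.7 ± 14.1 FPKM in WT roots and 99.6 ± 5.25 FPKM in BC roots. Sums of debranching enzymes, dikinases and beta-amylases were also lower in BC without overlap, with BC to WT ratios of 0.757, 0.836 and 0.84. That ratio was 0.499 for branching enzymes, and the alpha-amylase sums overlapped (ratio 0.921). By contrast, the summed levels of ADP-glucose pyrophosphorylase (544.7 ± 38.3 and 595.3 ± 31.8 FPKM) and of starch synthases (348.7 ± 52.1 and 358 ± 32.6 FPKM) overlapped between the groups. For the pyrophosphorylase the overlap came from WT replicate 2, at 588.19 FPKM, while the other WT samples were at 515.99 and 529.8 FPKM and BC ran from 569.84 to 630.93 FPKM. Its small subunits alone, without a merged gene model, summed to 416.57 to 417.23 FPKM in WT and to 444.35 to 487.99 FPKM in BC, without overlap. A single gene (DCAR_013816.v1.0) made up 93.7% to 95.2% of that sum and did not pass the test described next (limma adjusted p = 0.16). Of the 34 tested members 11 fell, 3 rose and 20 did not pass the test, a limma fit over all 21033 tested genes with a Benjamini-Hochberg adjusted p below 0.05. Over all tested genes 23.5% fell, 22.8% rose and 46.4% were called in either direction, against 32.4%, 8.82% and 41.2% of the members. The share called in either direction was thus close to the background, and the median log2 change was -0.20 over the members and -0.02 over all tested genes. Values of the groups did not overlap for 19 members (55.9%), against 57.1% of all tested genes. The count of members that fell varied with the sample left out. It was 4 without WT replicate 3 (11.8%, against 15.2% of all tested genes), 5 without BC replicate 1 (14.7%, against 16.3%), 6 without BC replicate 2 (17.6%, against 18.1%) and 7 without WT replicate 1 (20.6%, against 18.1%). The count was 9 without WT replicate 2 (26.5%, against 21.1%) and 11 without BC replicate 3 (32.4%, against 24.7%). The share that fell was therefore above the background with all samples and in the last 3 of these fits, and below it in the first 3.

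**Figure D1:**
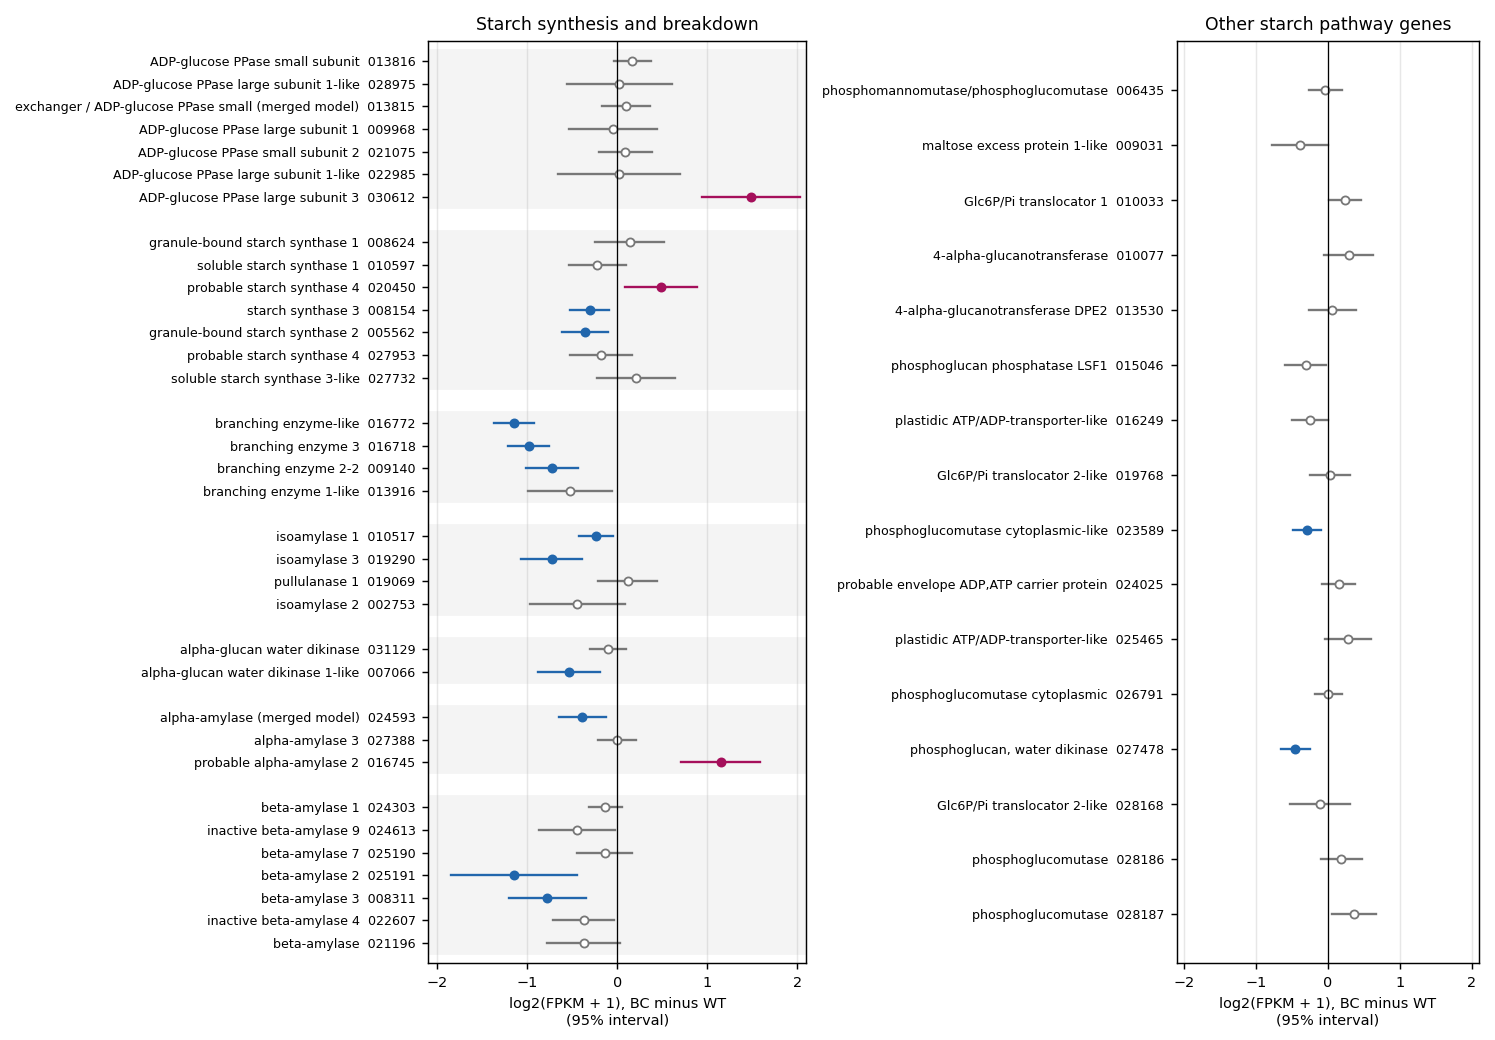
Difference in log2(FPKM + 1), BC minus WT, with its 95% interval from limma, for the 34 tested starch genes grouped by class (left) and for 16 other genes of the pathway (right). Filled blue points fell, filled purple points rose and open grey points did not pass the test. The numbers after the names are the digits of the locus ID. The 4 branching enzyme genes lie between -1.15 and -0.53, while 6 of the 7 ADP-glucose pyrophosphorylase genes lie between -0.05 and 0.17.

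On the log2(FPKM + 1) scale, 4 of the 34 members changed at least 2-fold and passed the test (11.8%, against 19.9% of all tested genes). They were a branching enzyme, beta-amylase 2, alpha-amylase 2 and a scarcely expressed pyrophosphorylase subunit. Branching enzyme 3 was just short of this on that scale, with a ratio of its mean FPKM in BC to that in WT of 0.498. The pyrophosphorylase subunit, also 1 of the 3 members that rose, passed the filter on low values through its BC samples alone. A difference was thus built into its selection for testing. Genes of green tissue moved at the same time: the summed level of 72 light-harvesting and photosystem genes was 6034 to 9230 FPKM in WT and 20468 to 24523 FPKM in BC, and 44 of the 61 tested rose and 3 fell. Their part in the differences among starch genes was not tested.

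**Figure D2:**
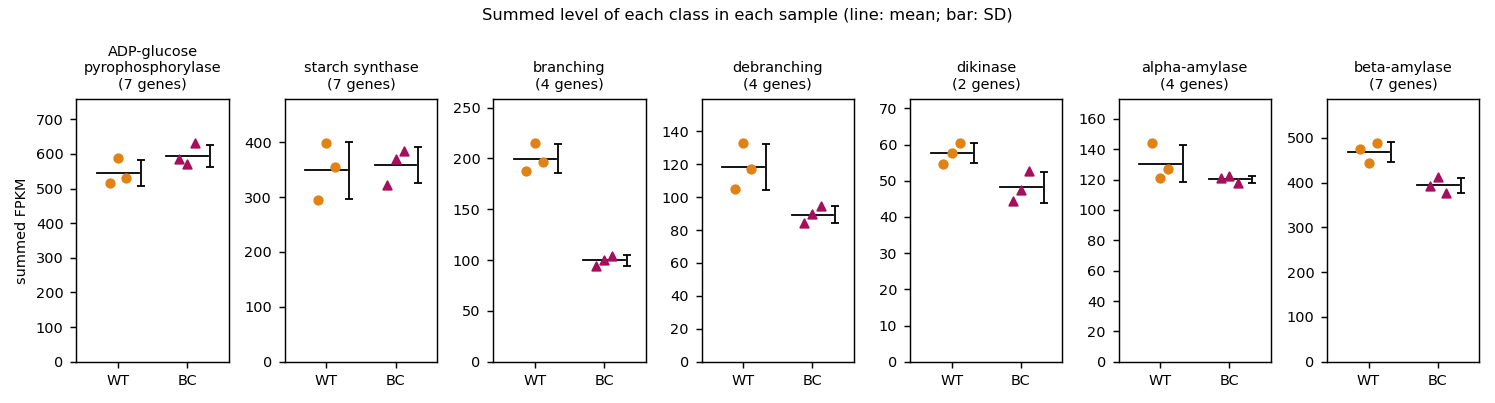
Summed FPKM of the genes of each class in each sample, with every axis starting at 0. Circles are WT samples and triangles are BC samples, the line is the mean of 3 and the bar its SD. The branching class has no BC sample above 104.51 FPKM and no WT sample below 187.28 FPKM, while the pyrophosphorylase class, through WT replicate 2, and the synthase class overlap. The debranching, dikinase and beta-amylase classes are also lower in BC without overlap, and the alpha-amylase class overlaps.

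Branching enzymes were lower in BC for each of the 4 genes, and 3 of them passed the test (75%, while 23.5% of all tested genes fell). These enzymes cut a linear glucan chain and rejoin the piece as a side branch. The most abundant, described as 1,4-alpha-glucan-branching enzyme-like (DCAR_016772.v1.0), was at 86.67, 103.59 and 94.71 FPKM in the WT samples, against 42.17, 44.03 and 40.75 FPKM in those of BC. The groups were far apart relative to their spread, and the log2 fold change was -1.15 (SE 0.09, limma adjusted p = 0.00016). Branching enzyme 3 (DCAR_016718.v1.0) was at 54.49, 53.13 and 50.59 FPKM in the WT samples, against 23.89, 25.97 and 28.89 FPKM in those of BC. Its log2 fold change was -0.98 (SE 0.10, limma adjusted p = 0.000389). Branching enzyme 2-2 (DCAR_009140.v1.0) was at 43.57, 54.69 and 49.11 FPKM in the WT samples, against 26.44, 28.98 and 32.66 FPKM in those of BC. Here the log2 fold change was -0.72 (SE 0.12, limma adjusted p = 0.00361). In all 3 genes every BC sample was below every WT sample, and the calls held when any single sample was left out and under each other setting tried.

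The remaining branching gene, described as branching enzyme 1-like (DCAR_013916.v1.0), was scarce. It was at 2.55, 3.6 and 2.49 FPKM in the WT samples, against 1.58, 1.3 and 2.21 FPKM in those of BC, without overlap between the groups. Its log2 difference was -0.53 (SE 0.20, limma adjusted p = 0.0657), so it did not pass. It did with quantile normalization, with size factors, with eBayes without a trend and without BC replicate 3 (limma adjusted p = 0.0051, 0.0496, 0.0488 and 0.0336). Within each sample, the summed level of branching enzymes was 54.0% to 63.7% of that of starch synthases in WT and 27.2% to 29.3% in BC. That ratio compares levels per length within 1 library and so does not depend on how libraries were scaled.

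**Figure D3:**
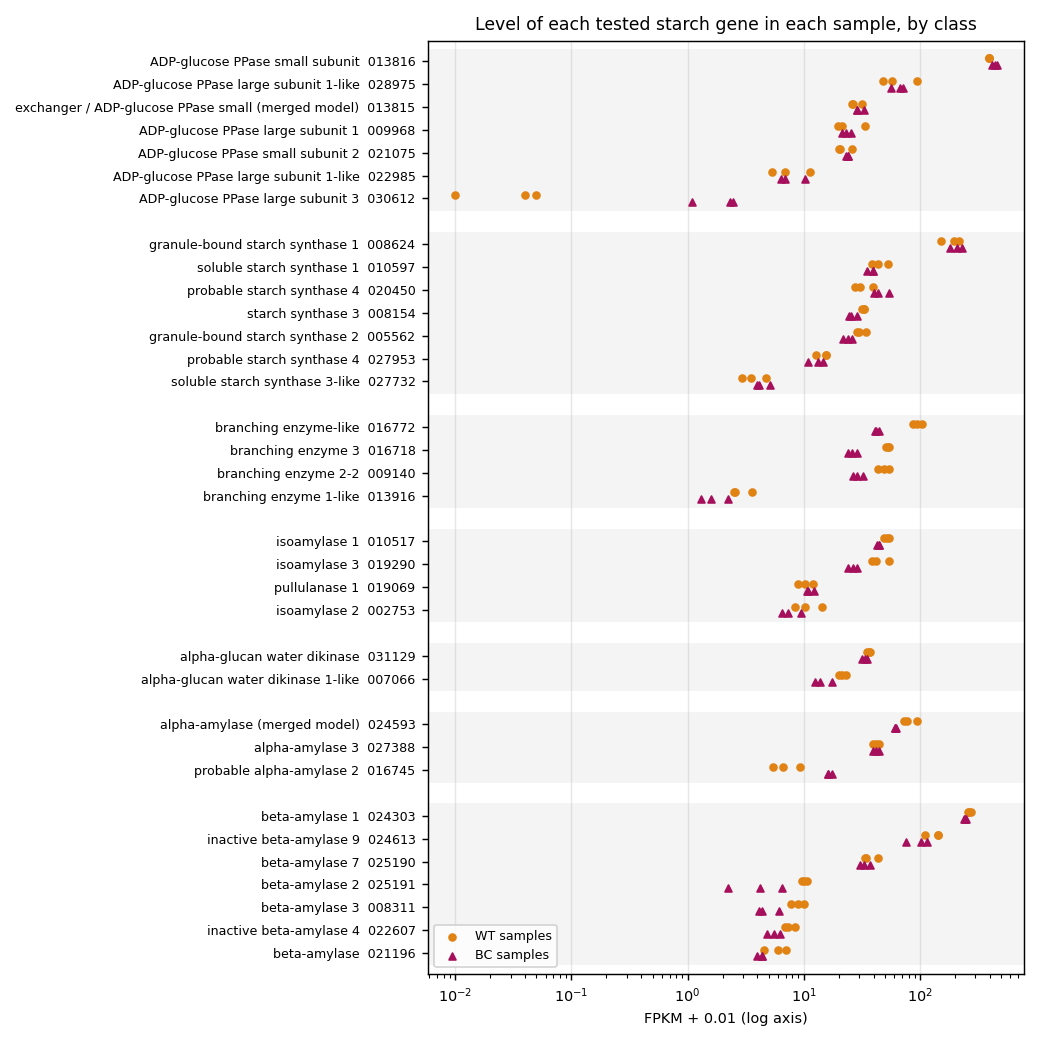
FPKM of each of the 34 tested starch genes in each sample, on a log axis with 0.01 added so that a value listed at 0 can be shown, with WT as circles and BC as triangles. Levels span from pyrophosphorylase large subunit 3, at 0 to 0.04 FPKM in WT, to the pyrophosphorylase small subunit, at 390.98 to 464.01 FPKM. The branching enzyme rows show the WT and BC points apart.

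ADP-glucose pyrophosphorylase, which commits carbon to starch, is built of small subunits that carry catalysis and large subunits that mainly tune regulation. Of its 7 genes 1 rose (14.3%, against 22.8% of all tested genes), none fell and 6 did not pass the test. The small subunit DCAR_013816.v1.0 was the most abundant of all starch genes and ranked in the top 2.12% of tested genes. Its values were 396.45, 390.98 and 396.63 FPKM in WT and 443.25, 421.37 and 464.01 FPKM in BC. Every BC sample was above every WT sample, by a log2 difference of 0.17 that did not pass the test (95% interval -0.04 to 0.37, limma adjusted p = 0.16). A further small subunit gene (DCAR_021075.v1.0) had means of 22.3 ± 3.41 FPKM in WT and 23.7 ± 0.605 FPKM in BC roots. The main gene thus made up 93.7% to 95.2% of the summed level of both small subunit genes in all 6 samples.

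The groups overlapped for 3 of the 4 large subunit genes, and WT replicate 2 stood above the other WT samples in each of these 3. The large subunit 1-like gene DCAR_028975.v1.0 was at 48.2, 93.93 and 57.64 FPKM in the WT samples, against 56.5, 67.75 and 71.85 FPKM in those of BC. Large subunit 1 (DCAR_009968.v1.0) was at 19.77, 33.8 and 21.37 FPKM in the WT samples, against 23.34, 21.49 and 25.69 FPKM in those of BC. A scarcer large subunit 1-like gene (DCAR_022985.v1.0) was at 5.27, 11.28 and 6.91 FPKM in the WT samples, against 6.84, 6.31 and 10.16 FPKM in those of BC. Their log2 differences lay between -0.05 and 0.02, with 95% intervals, in the same order, of -0.56 to 0.61, -0.54 to 0.44 and -0.66 to 0.70. Without WT replicate 2 the log2 differences were 0.30, 0.18 and 0.29, and none passed (limma adjusted p = 0.137, 0.25 and 0.359). Leaving out WT replicate 1 instead gave -0.18, -0.19 and -0.19, and none passed (limma adjusted p = 0.579, 0.511 and 0.621).

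Large subunit 3 (DCAR_030612.v1.0) was listed at 0.03, 0.04 and 0 FPKM in the WT samples, against 2.29, 1.09 and 2.44 FPKM in those of BC. It was the member with the largest rise on the log2(FPKM + 1) scale, 1.49 (SE 0.23, limma adjusted p = 0.00245). The gene passed the filter on low values through its BC samples alone, so a difference was built into its selection for testing, and at this level it added little to the summed large subunits, 73.27 to 139.05 FPKM in WT and 88.97 to 110.14 FPKM in BC. A gene model described both as a vacuolar cation/proton exchanger and as the small subunit (DCAR_013815.v1.0) was at 28.2 ± 3.19 and 30.2 ± 2.28 FPKM. It carries domains of both proteins and shares its small subunit match with DCAR_013816.v1.0, so its level cannot be assigned to either.

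Starch synthases elongate the chains, and the members of the family differ in the chains they favour. Of 7 genes 1 rose (14.3%, against 22.8% of all tested genes), 2 fell (28.6%, against 23.5%) and 4 did not pass the test. Granule-bound starch synthase 1 (DCAR_008624.v1.0), which makes amylose inside the granule, was the most abundant, at 150.6, 218.97 and 197.29 FPKM in the WT samples, against 181.43, 208.32 and 229.02 FPKM in those of BC. The groups overlapped (log2 difference 0.14, 95% interval -0.25 to 0.52, limma adjusted p = 0.524). It held 51.2% to 55.7% of the summed synthase level in WT and 56.4% to 59.7% in BC. Soluble starch synthase 1 (DCAR_010597.v1.0), which in Arabidopsis favours short chains, averaged 45.0 ± 7.39 FPKM in WT against 38.2 ± 2.79 FPKM in BC roots and did not pass (log2 difference -0.22, 95% interval -0.54 to 0.10).

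The synthases that changed did so by small amounts. Granule-bound starch synthase 2 (DCAR_005562.v1.0), a name used in pea and potato for the class II synthase, fell from 31.1 ± 2.73 to 24.0 ± 1.94 FPKM (log2 fold change -0.36, SE 0.11, limma adjusted p = 0.0315). Starch synthase 3 (DCAR_008154.v1.0), which makes long chains, was at 33.05, 31.98 and 33.03 FPKM in the WT samples, against 24.58, 25.61 and 28.65 FPKM in those of BC (log2 fold change -0.31, SE 0.09, limma adjusted p = 0.0318). Neither gene's groups overlapped. Granule-bound starch synthase 2 no longer passed when WT replicate 2, WT replicate 3, BC replicate 1 or BC replicate 2 was left out (limma adjusted p = 0.0729, 0.0865, 0.107 and 0.0742). Starch synthase 3 no longer passed when any WT sample, BC replicate 1 or BC replicate 2 was left out (limma adjusted p = 0.0857, 0.05, 0.114, 0.109 and 0.0924).

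Starch synthase 4 starts new granules in Arabidopsis, and the table held 2 genes described as probable members of that class. One of them, also described as glycogen synthase-like (DCAR_020450.v1.0), was at 27.38, 39.5 and 30.75 FPKM in the WT samples, against 43.38, 53.88 and 40.51 FPKM in those of BC. The nearest samples of the groups were about 1 FPKM apart, and the rise stood just under the threshold (log2 fold change 0.49, SE 0.17, limma adjusted p = 0.0497). The call ended when WT replicate 1, WT replicate 3 or any BC sample was left out (limma adjusted p = 0.141, 0.141, 0.102, 0.135 and 0.0506) and with samples rescaled to equal totals (limma adjusted p = 0.1). The other (DCAR_027953.v1.0) averaged 14.7 ± 1.67 FPKM in WT against 12.9 ± 1.85 FPKM in BC roots and did not pass. A scarce soluble starch synthase 3-like gene (DCAR_027732.v1.0), at 3.71 ± 0.894 and 4.41 ± 0.606 FPKM, did not pass either.

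Debranching enzymes split branch points, some to shape new amylopectin and others to take starch apart. In BC roots 2 of 4 fell (50%, against 23.5% of all tested genes). Isoamylase 3 (DCAR_019290.v1.0), which acts in starch breakdown in Arabidopsis leaves, was at 38.43, 53.85 and 42.27 FPKM in the WT samples, against 24.11, 26.78 and 28.57 FPKM in those of BC. All BC samples were below all WT samples (log2 fold change -0.73, SE 0.14, limma adjusted p = 0.00664), and the call held without any 1 sample. Isoamylase 1 (DCAR_010517.v1.0), the trimming enzyme of synthesis, was at 49, 52.59 and 54.13 FPKM in the WT samples, against 42.72, 44.85 and 44.2 FPKM in those of BC, a small difference without overlap (log2 fold change -0.24, SE 0.08, limma adjusted p = 0.0478). Leaving out any single sample ended that call (limma adjusted p = 0.0565 to 0.18).

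Isoamylase 2 (DCAR_002753.v1.0), the partner of isoamylase 1 that lacks activity of its own in Arabidopsis, averaged 11.0 ± 3.05 FPKM in WT against 7.76 ± 1.61 FPKM in BC roots and did not pass (log2 difference -0.44, 95% interval -0.97 to 0.09), except with quantile normalization (limma adjusted p = 0.0455). Pullulanase 1 (DCAR_019069.v1.0), which removes short branches, was at 10.4 ± 1.51 and 11.3 ± 0.899 FPKM (log2 difference 0.12, 95% interval -0.21 to 0.44). The isoamylases therefore all had lower means in BC, with 2 called, whereas the pullulanase mean was slightly higher and not called.

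Alpha-glucan water dikinases phosphorylate glucan chains and open the granule surface to amylases. Of their 2 genes 1 fell (50%, against 23.5% of all tested genes). The gene described as alpha-glucan water dikinase 1-like (DCAR_007066.v1.0) was at 19.95, 21.18 and 23.13 FPKM in the WT samples, against 12.42, 13.85 and 17.43 FPKM in those of BC (log2 fold change -0.54, SE 0.14, limma adjusted p = 0.0214). Its groups did not overlap, and the gene no longer passed when WT replicate 3, BC replicate 1 or BC replicate 2 was left out (limma adjusted p = 0.0873, 0.0716 and 0.0616). The more abundant dikinase gene (DCAR_031129.v1.0) averaged 36.2 ± 1.26 FPKM in WT against 33.6 ± 1.69 FPKM in BC roots and did not pass (log2 difference -0.10, 95% interval -0.30 to 0.09).

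Alpha-amylases cut inside glucan chains. Among the 3 tested, probable alpha-amylase 2 (DCAR_016745.v1.0) had the largest rise of the members chosen by description words that were expressed in both groups. It was at 5.44, 9.25 and 6.62 FPKM in the WT samples, against 17.56, 16.3 and 16.11 FPKM in those of BC (log2 fold change 1.15, SE 0.18, limma adjusted p = 0.00284). The lowest BC sample was well above the highest WT sample, and the call held under every setting tried. Alpha-amylase 3 (DCAR_027388.v1.0), the plastid form in Arabidopsis, was at 44.17, 39.46 and 42.19 FPKM in the WT samples, against 42.03, 44.35 and 39.27 FPKM in those of BC, with interleaved values (log2 difference -0.00, 95% interval -0.21 to 0.21).

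The last model, described both as an alpha-amylase and as a subunit of the NEDD8-activating enzyme (DCAR_024593.v1.0), fell from 81.5 ± 11.4 to 61.7 ± 0.405 FPKM (log2 fold change -0.39, SE 0.11, limma adjusted p = 0.0279). It carries domains of both proteins and matches 2 genes in RefSeq's annotation, so the fall cannot be assigned to the amylase. The call also ended when WT replicate 1, WT replicate 3 or any BC sample was left out (limma adjusted p = 0.0537, 0.0706, 0.0833, 0.0709 and 0.053).

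Beta-amylases release maltose from chain ends, and in BC roots 2 of the 7 genes fell and none rose. The share that fell, 28.6%, was close to the 23.5% of all tested genes, and none fell without WT replicate 3. The most abundant, beta-amylase 1 (DCAR_024303.v1.0), was at 266.35, 257.13 and 278.12 FPKM in the WT samples, against 242.94, 247.91 and 240.85 FPKM in those of BC. These values did not overlap, but the log2 difference of -0.13 did not pass (95% interval -0.32 to 0.06, limma adjusted p = 0.214). Beta-amylase 3 (DCAR_008311.v1.0), a main maltose-forming enzyme of Arabidopsis leaves at night, was at 8.93, 7.81 and 10.13 FPKM in the WT samples, against 4.36, 4.09 and 6.13 FPKM in those of BC (log2 fold change -0.78, SE 0.18, limma adjusted p = 0.0121). Its call was lost without WT replicate 3 (limma adjusted p = 0.0554).

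Beta-amylase 2 (DCAR_025191.v1.0) was at 10.58, 9.56 and 10.05 FPKM in the WT samples, against 4.2, 2.24 and 6.47 FPKM in those of BC. The WT samples were tight and the BC samples spread, all of them lower (log2 fold change -1.14, SE 0.29, limma adjusted p = 0.019). Without WT replicate 1 or 3 or BC replicate 1 the call was lost (limma adjusted p = 0.059, 0.0609 and 0.0566). Next to it in the RefSeq annotation lies the gene for beta-amylase 7 (DCAR_025190.v1.0), which carries a BES1-type DNA-binding domain in the deposited Pfam column besides its glycosyl hydrolase domain. Beta-amylase 7 was at 33.67, 43.54 and 34.63 FPKM in the WT samples, against 30.64, 33.11 and 37.01 FPKM in those of BC, with overlap (log2 difference -0.14, 95% interval -0.45 to 0.17). The level of beta-amylase 7 was 3.18 to 4.55 times that of its neighbour in WT samples and 5.72 to 14.8 times in BC samples.

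The family also held genes described as inactive or without a number. Inactive beta-amylase 9 (DCAR_024613.v1.0) was at 143.88, 110.46 and 141.88 FPKM in the WT samples, against 101.69, 114.51 and 76.32 FPKM in those of BC. The groups overlapped through WT replicate 2 and BC replicate 2, and the log2 difference of -0.44 did not pass (limma adjusted p = 0.0808), though it did without WT replicate 2 and with equal totals (limma adjusted p = 0.0482 and 0.0248). Inactive beta-amylase 4 (DCAR_022607.v1.0), at 7.49 ± 0.77 and 5.56 ± 0.70 FPKM, did not pass, except without BC replicate 3 (limma adjusted p = 0.0447) and with quantile normalization (limma adjusted p = 0.0113). The unnumbered beta-amylase (DCAR_021196.v1.0), at 5.87 ± 1.26 and 4.25 ± 0.249 FPKM, passed only with quantile normalization (limma adjusted p = 0.0153). In the family as a whole all 7 mean log2 differences were below 0, from -1.14 to -0.13. Of the 21033 tested genes, 10750 had a difference below 0.

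Genes that act beside these enzymes were taken from a separate list of words for glucan phosphatases, phosphoglucan dikinase, glucanotransferases, phosphoglucomutases and plastid translocators of hexose phosphate, ATP and maltose. All 16 were tested; 2 fell and none rose (12.5% called, against 46.4% of all tested genes). The largest fall was in phosphoglucan, water dikinase (DCAR_027478.v1.0), which adds further phosphate after the first dikinase has acted. It was at 41.5, 42.95 and 44.65 FPKM in the WT samples, against 29.33, 32.03 and 32.29 FPKM in those of BC, without overlap (log2 fold change -0.45, SE 0.08, limma adjusted p = 0.00527), and its call held without any 1 sample.

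A cytoplasmic phosphoglucomutase-like gene (DCAR_023589.v1.0), whose enzyme interconverts glucose-1-phosphate and glucose-6-phosphate, was at 296.6, 297.98 and 307.96 FPKM in the WT samples, against 251.04, 234.39 and 252.42 FPKM in those of BC (log2 fold change -0.29, SE 0.08, limma adjusted p = 0.0241). The call ended when WT replicate 1, WT replicate 3, BC replicate 1 or BC replicate 2 was left out, with an adjusted p of up to 0.105 (limma). Another cytoplasmic phosphoglucomutase gene (DCAR_026791.v1.0) averaged 79.9 ± 2.07 FPKM in WT against 80.2 ± 4.64 FPKM in BC roots and did not pass. The hexose phosphate importer glucose-6-phosphate/phosphate translocator 1 (DCAR_010033.v1.0) averaged 102.4 ± 10.2 FPKM in WT against 120.6 ± 3.25 FPKM in BC roots and did not pass (limma adjusted p = 0.0779), except without WT replicate 2 (limma adjusted p = 0.0189). The translocator 2-like genes DCAR_019768.v1.0 and DCAR_028168.v1.0 had log2 differences of 0.03 and -0.11, and neither passed. Plastid phosphoglucomutase matched 2 gene models. DCAR_028187.v1.0 averaged 19.7 ± 2.82 FPKM in WT against 25.5 ± 2.03 FPKM in BC roots and did not pass (limma adjusted p = 0.0542), although it did without WT replicate 2, with size factors and with quantile normalization (limma adjusted p = 0.0174, 0.0337 and 0.0442), and DCAR_028186.v1.0 was at 19.3 ± 1.61 and 22.1 ± 2.61 FPKM. Both match the same RefSeq gene, so they may be pieces of 1 gene.

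Downstream of the amylases, the maltose exporter maltose excess protein 1-like (DCAR_009031.v1.0) averaged 12.1 ± 1.36 FPKM in WT against 9.05 ± 1.74 FPKM in BC roots and did not pass (limma adjusted p = 0.0915), although it did without BC replicate 3 and with quantile normalization (limma adjusted p = 0.0263 and 0.0297). The glucanotransferase DPE2 (DCAR_013530.v1.0), which uses that maltose in the cytosol, was at 43.44, 59.84 and 51.48 FPKM in WT samples and 50.09, 51.88 and 59.18 FPKM in BC samples (log2 difference 0.07, 95% interval -0.26 to 0.39). The plastid glucanotransferase (DCAR_010077.v1.0) was at 13.1 ± 2.23 and 16.1 ± 1.11 FPKM and passed only without WT replicate 2 (limma adjusted p = 0.048). The phosphatase-like LSF1 (DCAR_015046.v1.0) averaged 43.1 ± 4.78 FPKM in WT against 34.6 ± 3.46 FPKM in BC roots and did not pass (limma adjusted p = 0.0769). The 2 ATP/ADP transporters that fuel plastids differed in sign and neither passed (log2 differences of -0.25 for DCAR_016249.v1.0 and 0.28 for DCAR_025465.v1.0), though the former did without WT replicate 2 (limma adjusted p = 0.0415).

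Glucan phosphorylases carry another wording in the table than the one that chose the members, so 3 such genes were picked after their values were seen. The plastid L-2 isozyme (DCAR_030028.v1.0) was at 2.77, 6.57 and 2.76 FPKM in the WT samples, against 11.77, 9.04 and 11.87 FPKM in those of BC, without overlap (log2 fold change 1.31, SE 0.30, limma adjusted p = 0.0115). The more abundant L isozyme (DCAR_025414.v1.0) was at 57.39, 86.55 and 61.31 FPKM in the WT samples, against 50.32, 42.93 and 59.39 FPKM in those of BC and did not pass (log2 difference -0.41, 95% interval -0.85 to 0.04). The remaining one, described as a glycogen phosphorylase and also as a pseudouridine synthase (novel1930), fell from 35.0 ± 1.43 to 25.8 ± 4.25 FPKM (limma adjusted p = 0.0327). It matches 2 genes in RefSeq's annotation, so the fall cannot be assigned to the phosphorylase alone. The call ended when any WT sample, BC replicate 1 or BC replicate 2 was left out, with an adjusted p of up to 0.0981 (limma).

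Starch genes also varied among samples of the same group. WT replicate 2 was the highest WT sample for 22 of the 34 tested members (64.7%, against 47.2% of all tested genes), and for 18 of the 22 among pyrophosphorylases, synthases, branching and debranching enzymes (81.8%). Among dikinases and amylases it was the highest for 4 of 12 (33.3%). In BC, replicate 3 was the highest for 24 of the 34 (70.6%, against 50.1%). Both held for 16 members (47.1%, against 30.8%). The typical gene also ran high in these samples, as each had the highest size factor by median ratios in its group. The factor was 1.056 for WT replicate 2, against 0.980 and 0.992, and 1.037 for BC replicate 3, against 0.997 and 0.958. WT replicate 2 and BC replicate 3 nevertheless had the lowest FPKM totals of their groups, 1141946 and 1184875. Their summed levels of green tissue genes were also the lowest, at 6034 and 20468 FPKM. How far these differences between samples account for the counts was not tested. Within WT the pyrophosphorylase class had the highest median coefficient of variation, 30.7%, against 8.95% within BC and 12.8% for all tested genes within WT. That median includes the scarcely expressed large subunit 3. The main small subunit gene (DCAR_013816.v1.0) varied little in WT, at 394.7 ± 3.21 FPKM. Branching enzymes varied by a median of 10.1% within either group, far less than the distance between the groups.

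**Figure D4:**
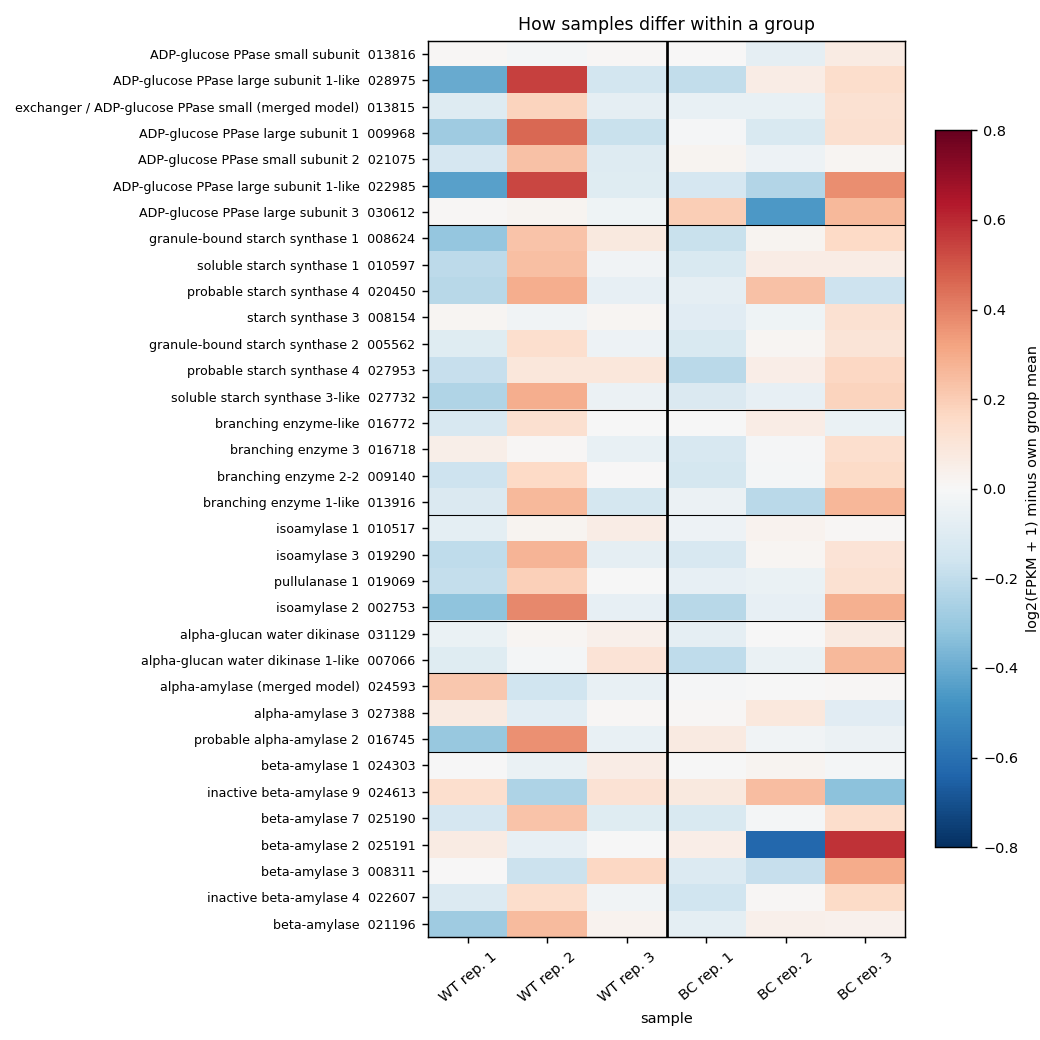
Each tested starch gene in each sample as log2(FPKM + 1) minus the mean of its own group, by class, with red for samples above and blue for samples below that mean. The red column of WT replicate 2 runs through most pyrophosphorylase, synthase and debranching rows, and BC replicate 3 is the highest BC sample for 24 of the 34 genes.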

How the data were processed

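Sequencing libraries were prepared from mRNA of 6 root samples, reverse transcribed from random hexamers and made circular, as the labels' protocols state. For all samples the authors deposited a single table of FPKM, to 2 decimals, with protein descriptions. RSEM appears, without a version, per the submitters' processing notes. Not given in the sources used here are the aligner, the genome build and the annotation. RSEM divides reads shared by similar genes, so levels of close copies are uncertain. No tested member shared all 6 values with another tested gene, but this cannot show how many reads were divided. FPKM are not counts and the depth is unknown, so no counting interval can be given. FPKM totals were 1141946 to 1186758 in WT and 1184875 to 1287459 in BC. On the log2(FPKM + 1) scale, pairs of WT samples correlated across genes at 0.974 to 0.988, pairs of BC samples at 0.953 to 0.979 and mixed pairs at 0.826 to 0.854 (Pearson).

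The test covered the 21033 genes that reached 1 FPKM in 3 samples or more. Differences of BC from WT in log2(FPKM + 1) came from limma 3.58.1 under R 4.3.3 (lmFit, then eBayes with its trend option), p-values were adjusted over all tested genes by Benjamini-Hochberg, and the fit was first tested on simulated data. Fold changes on this scale understate those of low genes. Members and lists were chosen with earlier results of these data known. Classes were set by description words. Named genes were every tested member with a mean of at least 5 FPKM in 1 group plus, among called members, the highest and the lowest log2 fold change, and further members were given after their values were seen. Of the 35 members, 32 matched a RefSeq gene of DH1 v3.0, used for names and neighbours. Alternatives were pseudocounts of 0.1 and 5, no filter, a filter at 5 FPKM, quantile normalization, size factors by median ratios, scaling to equal totals, robust eBayes, eBayes without a trend, a block for the replicate number, and leaving out every sample in turn. A count without 2 merged gene models was added later, with the data seen. Matplotlib 3.10.9 drew the figures.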

Additional observations from a re-analysis of the deposited data

How the results depend on the processing

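Across 16 other settings, 13 of the 32 named members kept their direction and their side of the threshold, the 3 called branching enzymes, isoamylase 3 and alpha-amylase 2 among them. The cause was not tested where a call changed. Members that fell numbered 11, against 7 with the replicate block and 4 to 11 with 1 sample left out. The count was 10 without the merged models, and the median log2 change of the members stayed between -0.30 and -0.14. Deviations of same-numbered samples correlated at 0.196, -0.356 and -0.195, which cannot settle whether those samples were handled together. Why fewer members fell with the block was not tested. Over all genes 4943 fell, and 3193 to 5203 with 1 sample left out. With equal totals 41.8% and with quantile normalization 41.7% of all calls were rises, against 49.3%, and equal totals moved the median of all genes to -0.11.

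Among the other pathway genes 1 rose with quantile normalization and with size factors, 0 to 3 rose with 1 sample left out, and 1 (replicate block) or 1 to 3 (1 sample left out) fell. By class, 0 pyrophosphorylase genes rose with the filter at 5 FPKM. The synthase that rose was lost (0) with eBayes without a trend, equal totals, no filter and pseudocounts of 0.1 and 5, and 0 to 1 rose with 1 sample left out. Synthases that fell numbered 0 with the block and 0 to 2 with 1 sample left out. Debranching genes that fell numbered 1 with eBayes without a trend or robust, the filter at 5 FPKM, the block, size factors or 1 sample left out. Dikinases that fell numbered 0 to 1 and beta-amylases 0 to 3 with 1 sample left out, and beta-amylases 4 with quantile normalization. Alpha-amylases that fell numbered 0 with the block and with size factors, and 0 to 1 with 1 sample left out.

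Differences near 0 changed sign without reaching the threshold. With equal totals they were -0.004 (DCAR_013815.v1.0), -0.008 (DCAR_021075.v1.0), -0.066 (DCAR_022985.v1.0) and -0.077 (DCAR_028975.v1.0). With quantile normalization they were -0.113 (DCAR_022985.v1.0) and 0.007 (DCAR_027388.v1.0, 0.015 with size factors). With 1 sample left out they ran from -0.018 to 0.251 (DCAR_008624.v1.0), -0.191 to 0.182 (DCAR_009968.v1.0), -0.194 to 0.291 (DCAR_022985.v1.0), -0.044 to 0.042 (DCAR_027388.v1.0) and -0.176 to 0.298 (DCAR_028975.v1.0).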
